A study of Mus musculus with 26 samples.

Results

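The OPC chase time course is the fall of labelled RNA in murine oligodendrocyte progenitor cells (OPCs) over 6 h. Its members are all rows of the deposited OPC table, 8530 protein-coding transcripts of the 10104 that are listed for either cell type of the study. Of these, 8177 are also listed for oligodendrocytes (OLs) and 353 are listed for OPCs only. The OL table holds 9751 transcripts.

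The OPCs were of strain 129S/SvEv, were derived from epiblast stem cells and grew in medium with the growth factors bFGF and PDGFA. They took up 5-ethynyluridine (5-EU), a uridine analogue to which biotin can be coupled, for 24 h, which was then exchanged for uridine. Plates were collected at 0, 1, 2, 4 and 6 h of this chase in 3 replicates, which gave 15 libraries of RNA pulled down on streptavidin. The OLs, differentiated from OPCs with noggin, IGF-1, cyclic AMP, NT3 and thyroid hormone and labelled in the same way, gave 10 libraries from 2 replicates, and an OPC library prepared with no biotin was not analysed here. Values are FPKM, the fragments mapped to a transcript per kilobase of its length and per library size, which the authors scaled to RNA spike-ins that carried 5-EU. A level is given as a percentage of the same replicate's 0 h library, and values for replicates 1, 2 and 3 are given in that order. Read counts were not used here, so the depth behind a value is unknown. No library of unlabelled cells or of other tissue entered the comparison.

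The defining transcripts of OPCs were all listed. The 10 OPC markers (among them Pdgfra, Cspg4, Olig1 and Olig2) summed to between 1679 and 1842 FPKM in the 0 h libraries. Of 11 markers of OLs, only Cnp and Mbp were listed, with sums between 37.6 and 55.1 FPKM, and the myelin genes Mag and Mog were not listed. Astrocyte markers were present in part, since 5 of 8 were listed and summed to between 429 and 512 FPKM, while Gfap, Aqp4 and Aldh1l1 were not listed. Of 8 neuronal markers, Map2 and Tubb3 were listed, at 81.8 to 183 FPKM in sum. None of 6 microglial or 6 pluripotency markers was listed.

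An mRNA is usually destroyed by shortening of its poly(A) tail, loss of its cap and digestion from its ends. Messages of transient regulators, such as the immediate early genes that growth factors switch on, are known for short lives, which are tied in many of them to AU-rich elements in the 3′ UTR. Messages of ribosomal proteins and of the respiratory chain are known as long-lived. In OPCs, FGF and PDGF act through the MAP kinase pathway, which induces both immediate early genes and its own inhibitors of the Dusp and Spry families.

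The AU-rich nonamer TTATTTATT was searched on the sense strand of each 3′ UTR, since it is a known core of AU-rich elements. It was found in 652 of 8517 transcripts with a complete coding model (7.66%). Of 33 candidates, which were 15 fast transcripts described further on and 18 immediate early genes, 4 held it. These were 4 of the 17 immediate early genes that could be searched (23.5%), and Myc, without a usable model, could not be. The sites are from GRCm38 with transcript models of GENCODE, all in 3′ UTR exons, and are written 5′ to 3′ on the strand of the transcript, with the nonamer in capitals and 10 bases on either side.
Fos: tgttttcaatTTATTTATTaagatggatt
Srf: acggcaccacTTATTTATTgttgcctttt
Fosl2: atttattttaTTATTTATTttaaatgttt
Maff: ttccacactcTTATTTATTgcacgaatct
The nonamer of Fos lies at chr12:85477113-85477121 on the plus strand and that of Srf at chr17:46549031-46549039 on the minus strand. That of Fosl2 lies at chr5:32156881-32156889 and that of Maff at chr15:79358788-79358796, both on the plus strand. The 3′ UTR of Maff holds 2 nonamers, of which 1 is shown. The half-lives of these 4 transcripts were 1.22 ± 0.64 h for Fos, 1.96 ± 0 h for Srf, 2.1 ± 1.6 h for Fosl2 and 3.83 ± 2.04 h for Maff (mean ± SD, n = 3). Only Maff lay above the median of 2.57 h over all transcripts, at 3.54, 1.96 and 6 h in the single replicates from a mean of 3.49 FPKM at 0 h. Over the whole table the nonamer was not most frequent in the fast class. It was in 7.33% of the transcripts that fell faster than the median transcript, in 4.59% of those that were slower and in 9.57% of those called neither, classes that are defined next. In the 630 faster transcripts never listed at a value of 0 it was in 9.84%, above each of these shares. The other classes were not split in this way. A match is a description of the sequence and not a site of binding.

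Labelled RNA of most transcripts fell throughout the chase. The median transcript stood at 67.9, 95.3 and 75.4% of its 0 h level after 1 h of chase. It stood at 54.7, 83.3 and 72.0% after 2 h and at 39.0, 20.4 and 37.0% after 4 h. After 6 h it stood at 14.4, 11 and 17.7%. The replicates kept different courses, since replicate 2 was the highest at 1 and 2 h and the lowest at 4 and 6 h, and such a shift moves a whole library at once. The sum of FPKM fell less, to 61.7, 67.3 and 64.9% of 0 h after 6 h. In replicate 1, 14.9% of the sum at 6 h came from Tmem38b, singled out after its values were seen, which encodes an ion channel of the endoplasmic reticulum and stood at 283 FPKM in replicate 2 and at 0 in replicate 3 at that time.

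The slope of log2(FPKM + 1) over chase time was tested with limma across all transcripts, with the replicate as a block and Benjamini-Hochberg adjusted p under 0.05. It fell for 6989 transcripts (81.9%) and rose for 432 (5.06%), and its median was −0.38 log2 units per h. Of the transcripts that fell, 6927 had a negative slope in each of the 3 replicates. The split rests on the spike-in scale, since it turned to 1154 that fell and 3365 that rose when each library was centred on its median. A second slope was therefore taken relative to the median transcript of each library, with 0.1 FPKM added to each value, over the 7573 transcripts whose 0 h mean reached 5 FPKM. On that scale 2006 transcripts were faster than the median transcript (26.5%) and 2665 were slower (35.2%). Centring on the upper quartile of each library instead moved this split to 4380 faster and 1722 slower. The relative slopes of single replicates agreed in rank, with Spearman coefficients of 0.79 to 0.83 over the 7573 transcripts, which share the 0 h level and annotation of each gene.

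Single time points showed when transcripts left their 0 h level. At 1 h, 4 transcripts had fallen (0.0469%) by limma, with 704 at an unadjusted p under 0.05, and none had risen, with 6 at an unadjusted p under 0.05. At 2 h, 1603 had fallen (18.8%) and none had risen, with 5 at an unadjusted p under 0.05. At 4 h, 5651 had fallen (66.2%) and 198 had risen (2.32%). At 6 h, 7148 had fallen (83.8%) and 285 had risen (3.34%). The counts at 1 h rest on single replicates: leaving out replicate 1 left 0 transcripts, leaving out replicate 2 gave 100 and leaving out replicate 3 gave 1. At 2 h, the count was 664 without replicate 1 and 765 without replicate 3, and it was also lower with 0.1 FPKM added in place of 1. The counts that had risen at 4 and 6 h were lowest without replicate 3, as given further on.

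**Figure D1:**
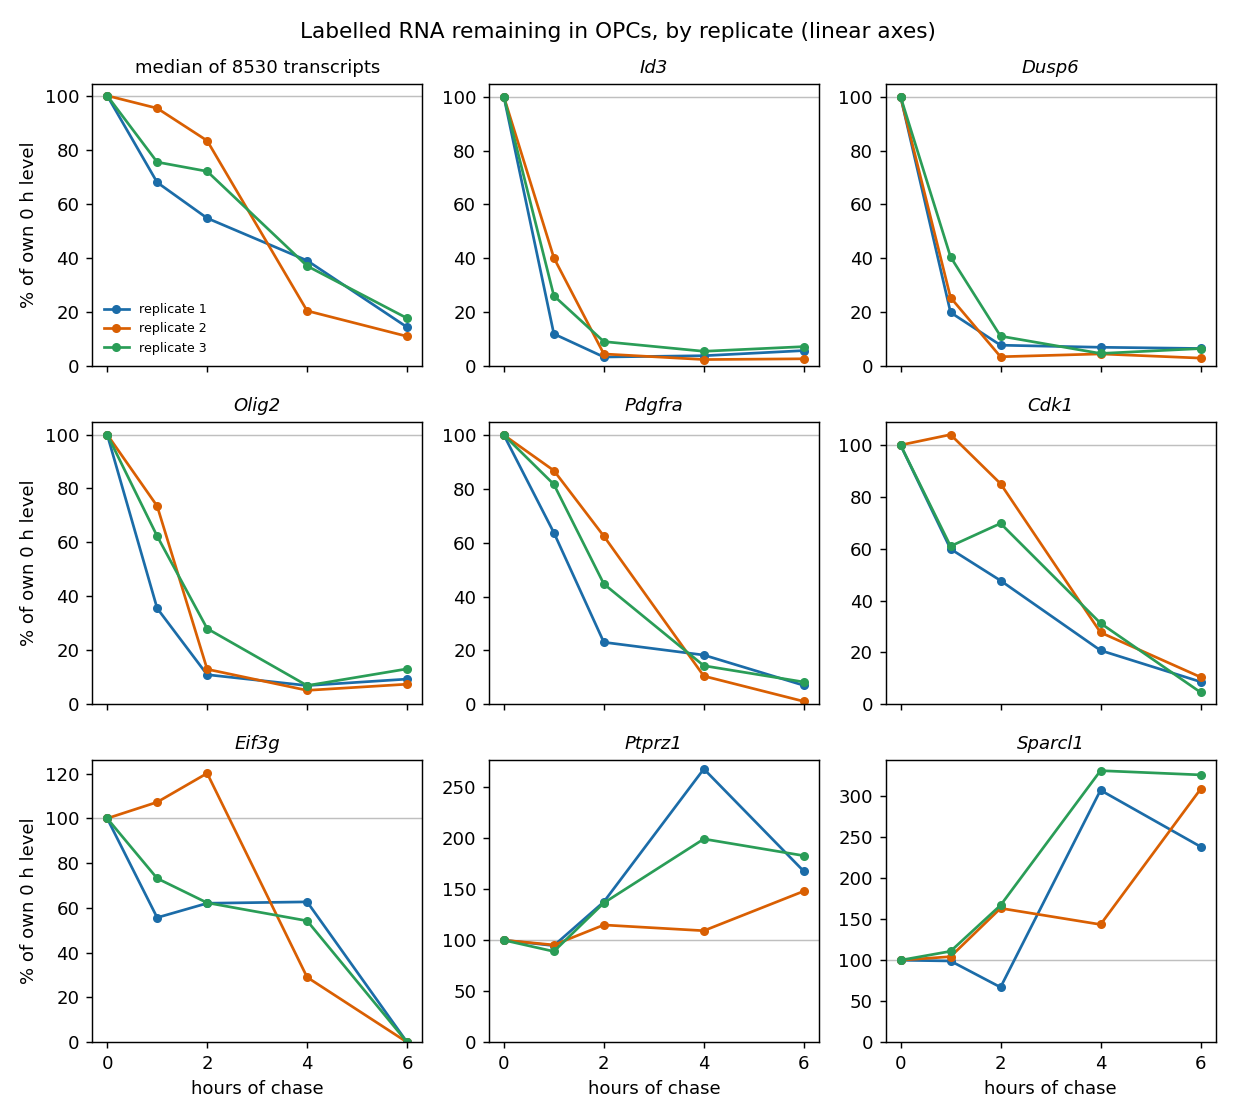
Labelled RNA remaining over the chase (y axis, percent of the same replicate's 0 h level, linear and starting at 0; x axis, hours of chase) for the median of 8530 transcripts and for 8 single genes, with a line for each of the 3 replicates. Id3, Dusp6 and Olig2 fall mostly before 2 h and flatten after it, Eif3g is at 0 at 6 h, and Ptprz1 and Sparcl1 end above their 0 h level in every replicate.

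The 4 transcripts that had fallen by 1 h were Id3, Dusp6, Plekhh1 and Lrrc75a, the first 2 of them known regulators. Id3 (chr4:136143497-136145392), an inhibitor of basic helix-loop-helix factors, stood at 188 ± 28.7 FPKM at 0 h (SD, n = 3). It was at 11.9, 40.2 and 26.1% after 1 h and at 3.36, 4.49 and 9.07% after 2 h. It was then at 5.74, 2.69 and 7.21% after 6 h. Nearly all of its loss thus lay in the first 2 h, and no replicate was lower at 6 h than at 4 h. Its half-life was 0.53 ± 0.22 h and its slope −0.64 ± 0.12 log2 units per h (SE, limma adjusted p = 2.8e-05). Dusp6 (chr10:99263231-99267488), the phosphatase that turns off ERK, stood at 358 ± 40.2 FPKM at 0 h and at 19.9, 25.4 and 40.5% after 1 h. It was at 7.74, 3.45 and 11.1% after 2 h and at 6.52, 2.95 and 6.49% after 6 h. The loss by 1 h of both genes was no longer past the threshold without replicate 1, without the replicate block or with 0.1 FPKM added in place of 1, and that of Id3 also without replicate 3 or with a minimum of 5 FPKM at 0 h.

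All 18 listed immediate early and AP-1 genes fell, beside 81.9% of all transcripts, with a median half-life of 1.05 h beside 2.57 h over all transcripts. Klf10, a growth-factor induced repressor, was the shortest-lived of them at 0.54 ± 0.03 h (n = 3). It stood at 25.7, 29.0 and 28.2% after 1 h, at 7.16, 6.02 and 17.0% after 2 h and at 6.63, 3.92 and 5.31% after 6 h. Myc, which drives growth, stood at 22.1, 36.4 and 43.9% after 1 h, at 9.41, 6.14 and 15.2% after 2 h and at 10.0, 4.82 and 12.7% after 6 h. Jun, a subunit of AP-1, stood at 10.7, 7.68 and 17.9% after 2 h and at 16.2, 14.3 and 14.9% after 6 h. Each of these had lost most of its label by 2 h, and at 6 h each lay between 3.92 and 16.2%, where the library medians were 14.4, 11 and 17.7%. Of the 15 genes of this list that could be tested, 5 (33.3%, beside 26.5% of all transcripts) were called faster than the median transcript over 6 h (Fos, Egr1, Nr4a1, Ier2 and Srf), and 11 of 15 were when libraries were centred on the upper quartile, beside 4380 of all 7573. When the 6 h libraries were left out, 14 of 15 were so called, beside 2598 of all 7573 transcripts. The call of Srf was lost without replicate 1 or 3 and that of Ier2 without replicate 2.

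Some immediate early genes lay above their 0 h level early in the chase. Nr4a1, a nuclear receptor without a known ligand, stood at 200, 209 and 240% after 1 h, at 34.9, 48.6 and 96.1% after 2 h and at 9.27, 0 and 0% after 6 h. Dusp5, a nuclear ERK phosphatase, stood at 185, 173 and 281% after 1 h and was listed at 0 in each replicate after 6 h. Nfkbiz, a nuclear regulator of NF-kappaB, stood at 514, 243 and 199% after 1 h. Fos, a subunit of AP-1, stood at 108, 459 and 202% after 1 h from a mean of 6.30 FPKM at 0 h, and Egr1, a zinc finger factor of the same response, stood at 103, 121 and 228%. Over 150% in all 3 replicates at 1 h were 4 transcripts of 8530, which were Nr4a1, Dusp5, Nfkbiz and Dcx, a set chosen after values were seen. None of them was past the threshold at 1 h, and all but Dcx fell over the 6 h.

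Of the feedback inhibitors of growth factor signalling, all 18 listed fell, beside 81.9% of all transcripts, with a median half-life of 1.18 h. Spry4, an inhibitor of receptor tyrosine kinase signalling, stood at 28.1, 39.1 and 45.9% after 1 h, at 9.89, 4.80 and 11.3% after 2 h and at 6.88, 3.41 and 7.22% after 6 h. Spry1 stood at 29.5, 55.5 and 68.5% after 1 h and at 10.6, 6.64 and 21.9% after 2 h, and Spry2 at 41.7, 74.4 and 63.0% and then at 9.09, 9.28 and 22.0%. In each of the 3 Spry genes replicate 1 was the lowest after 1 h. Of 14 feedback inhibitors tested, Gadd45b and Spred3 were faster than the median transcript over 6 h (14.3%, beside 26.5% of all transcripts). Of the same genes 12 of 14 were under upper-quartile centring, beside 4380 of all 7573, and 13 were without the 6 h libraries, beside 2598 of all 7573 transcripts. The call of Gadd45b was lost without replicate 2 or 3. Hes5, a Notch target, was among the 4 Id, Hes and Hey genes, which all fell, and stood at 20.4, 37.2 and 36.2% after 1 h and at 8.31, 8.98 and 6.17% after 6 h.

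Between 2 and 6 h the lists of regulators fell further. The median of the immediate early list was 25.4, 10.7 and 24.4% at 2 h and 9.57, 6.19 and 10.8% at 6 h. That of the feedback inhibitors was 19.4, 23.4 and 32.2% at 2 h and 7.35, 3.89 and 7.06% at 6 h. Over the same 4 h the median of all transcripts went from between 54.7 and 83.3% to between 11 and 17.7%. What part RNA held on the beads without label has in the levels that remained was not tested, since the library with no biotin was not analysed here. The early against late contrast, the relative rate from 0 to 2 h minus that from 2 to 6 h, was past the threshold for 109 of 7573 transcripts that fell faster early (1.44%) and for 29 that fell faster late (0.383%). Without replicate 1 no transcript passed in either direction.

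The 23 transcription factors of the oligodendrocyte lineage all fell, beside 81.9% of all transcripts, and their half-lives ranged from 0.70 to 6 h. Among the short-lived were Sox8, a Sox factor of the glial lineage, and Olig2, which specifies the lineage. Sox8 stood at 22.9, 62.5 and 44.7% after 1 h and at 9.70, 7.75 and 13.6% after 2 h. Olig2, at 323 ± 8.03 FPKM at 0 h, stood at 35.5, 73.5 and 62.3% after 1 h, at 10.9, 12.9 and 28.0% after 2 h and at 9.29, 7.40 and 13.1% after 6 h. At 2 h every replicate of both genes was thus below the library median of its replicate. Olig1, the paralogue of Olig2, at 1047 ± 35.5 FPKM at 0 h, stood at 57.6, 81.5 and 72.3% after 2 h and at 13.5, 12.6 and 21.4% after 6 h, close to the library medians. The half-life was 2.83 ± 0.42 h for Olig1 and 0.90 ± 0.21 h for Olig2. The replicates of the pair did not overlap at 2 h, a difference that was not tested between genes.

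The Ets factors Etv1, Etv4 and Etv5, which act downstream of FGF signalling, lay on both sides of the median transcript. Etv5 stood at 53.1, 79.8 and 74.2% after 2 h and at 8.55, 8.30 and 15% after 6 h and was faster than the median transcript (−0.13 ± 0.04 log2 units per h, SE, limma adjusted p = 0.014), a call that was lost without replicate 1 or 2. Etv4 stood at 92.2, 109 and 88.3% after 2 h and at 40.2, 61.7 and 52.3% after 6 h and was slower (0.33 ± 0.03, adjusted p = 1.9e-07 by limma). The 6 h levels of Etv4 were above those of Etv5 in every replicate. Etv1 (0.12 ± 0.04, limma adjusted p = 0.015) and Carhsp1 (0.15 ± 0.03, limma adjusted p = 8.6e-04), the latter not an Ets factor, were also slower. Both turned to the faster side when libraries were centred on the upper quartile. The homeobox genes Nkx6-1 and Hoxa5 and the Sox factor Sox6 were the other 3 lineage factors called faster, and the first 2 of these were listed at 0 in all 3 replicates after 6 h. The call of Sox6 was lost without replicate 2, and that of Etv1 without replicate 3. The list thus held 4 faster and 3 slower of 23 (17.4 and 13.0%, beside 26.5 and 35.2% of all transcripts). It held 18 and 1 under upper-quartile centring, beside 4380 and 1722 of all 7573, and 15 faster without the 6 h libraries, beside 2598.

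Surface receptors and matrix proteoglycans of OPCs had a median half-life of 5.65 h. Of 32 listed, 17 fell and 8 rose, beside 81.9% and 5.06% of all transcripts. Of 28 tested, 3 were faster and 16 slower than the median transcript (10.7 and 57.1%, beside 26.5 and 35.2%). Under upper-quartile centring 10 were faster and 14 slower, beside 4380 and 1722 of all 7573. Ptprz1, a receptor phosphatase that is itself a proteoglycan, stood at 138, 115 and 137% after 2 h and at 168, 148 and 183% after 6 h. Bcan, the proteoglycan brevican, stood at 106, 100 and 92.3% after 2 h and at 156, 179 and 201% after 6 h. Both rose on the spike-in scale (slope 0.15 ± 0.04, limma adjusted p = 3.2e-04, and 0.18 ± 0.03, limma adjusted p = 2.8e-05). Ncan, Ncam1, Itgb1, Cd9 and Lhfpl3 rose as well, and Cspg5 stood at 55.3, 81.5 and 77.3% after 6 h with a half-life at the ceiling of 6 h in all 3 replicates.

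Growth factor receptors were among the 3 faster ones. Pdgfra, the receptor of PDGFA, stood at 23.0, 62.4 and 44.7% after 2 h, at 18.2, 10.4 and 14.3% after 4 h and at 6.97, 1.03 and 8.22% after 6 h. Fgfr3 stood at 54.3, 71.4 and 72.2% after 2 h and at 3.67, 2.39 and 2.59% after 6 h, under the library median in each replicate. Both were faster than the median transcript, by −0.27 ± 0.07 (limma adjusted p = 3.2e-03) and −0.43 ± 0.05 (limma adjusted p = 2.2e-06) log2 units per h. Efnb1, an ephrin ligand, was the third gene of the list called faster. The call of Pdgfra was lost without replicate 2 (adjusted p = 0.053 by limma). Cspg4, the NG2 proteoglycan, kept to the median, at 54.9, 69.2 and 77.5% after 2 h and at 12, 15.3 and 28.9% after 6 h.

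Of 12 listed genes of myelin and OLs, 6 fell and none rose, beside 81.9 and 5.06% of all transcripts, with a median half-life of 4.33 h. Cnp, an enzyme of myelin, stood at 56.2, 103 and 64.8% after 2 h and at 68.6, 93.0 and 95.2% after 6 h from 43.6 ± 7.35 FPKM. It was 1 of 6 slower than the median transcript among 8 tested, with none faster, beside 35.2 and 26.5% of all transcripts. Under upper-quartile centring 4 were slower and 3 faster, beside 1722 and 4380 of all 7573.

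Of 53 listed genes of DNA replication and mitosis, 52 fell, beside 81.9% of all transcripts. Faster than the median transcript were 20 (37.7%, beside 26.5% of all transcripts) and slower 16 (30.2%, beside 35.2%). With libraries centred on the upper quartile these were 36 and 6, beside 4380 and 1722 of all 7573 transcripts. The median half-life was 2.90 h. Several genes of mitosis were fast. Plk1, a mitotic kinase, stood at 29.9, 54.8 and 40.9% after 2 h and at 3.75, 4.72 and 4.77% after 6 h. Aurka, the kinase of the spindle poles, stood at 10.1, 25 and 14.4% after 2 h and at 0, 5.07 and 0% after 6 h. Cdc20, an activator of the anaphase-promoting complex, stood at 52.6, 69.0 and 40.8% after 2 h and at 5.09, 6.01 and 8.53% after 6 h. All 3 were below the median of their library at 2 and 6 h in each replicate. Ccnb1, cyclin B1, was only slightly faster (−0.10 ± 0.03, limma adjusted p = 0.023), and leaving out replicate 2 or 3 ended that call.

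Slow genes of the list included Pcna, the sliding clamp of replication, which stood at 86.5, 116 and 99.7% after 2 h and at 36.2, 51.6 and 45.2% after 6 h. Rrm1, the large subunit of ribonucleotide reductase, stood at 84.0, 122 and 108% after 2 h and at 41.6, 64.1 and 77.0% after 6 h. Rrm2, its small subunit, stood at 62.3, 92.3 and 74.7% after 2 h and at 15.6, 9.66 and 16.0% after 6 h. The subunits of this enzyme thus did not overlap at 6 h, and Rrm1 was called slower than the median transcript (0.38 ± 0.03, limma adjusted p = 3.6e-08) while Rrm2 was called neither (−0.01 ± 0.03, limma adjusted p = 0.78). The direct difference was not tested.

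The 6 subunits of the MCM helicase, which form a single complex, were called differently. Mcm2 stood at 22.2, 31.8 and 62.4% after 6 h and was slower than the median transcript (0.26 ± 0.04 log2 units per h, limma adjusted p = 2.7e-05), as were Mcm5 and Mcm7. Mcm3 stood at 8.62, 1.74 and 7.46% after 6 h and was faster (−0.22 ± 0.08, limma adjusted p = 0.023). Mcm4 and Mcm6 were called neither. These calls were fragile: that of Mcm3 was lost without replicate 2 or 3 and its slope was 0.07 without the 6 h libraries, those of Mcm5 and Mcm7 turned to −0.10 and −0.12 when libraries were centred on the upper quartile, and the call of Mcm2 was lost there.

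**Figure D2:**
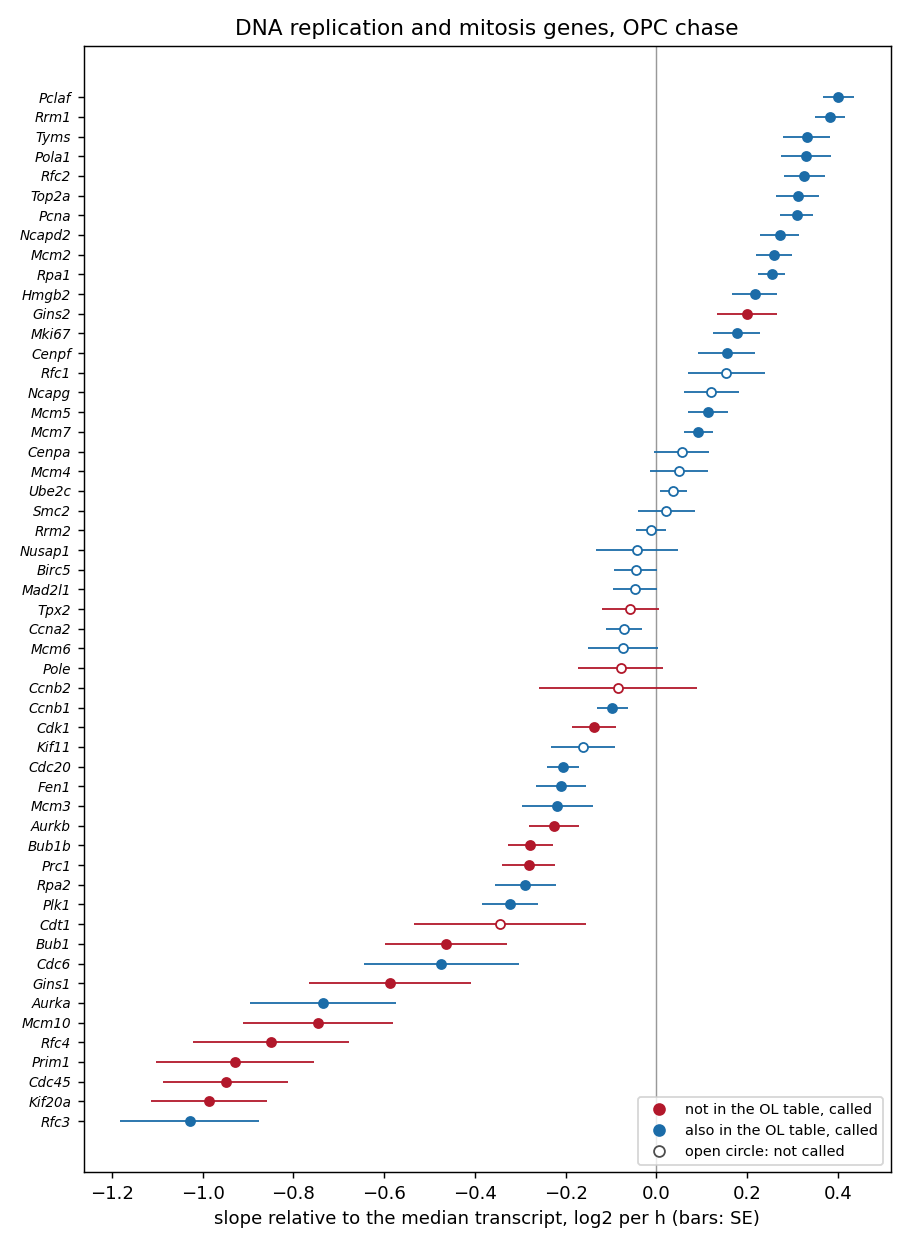
Slope relative to the median transcript (x axis, log2 units per h; points are limma estimates over 3 replicates and bars their SE) of the 53 listed genes of DNA replication and mitosis, with open circles for genes not past the threshold and red for genes that are not in the OL table. Genes range from Rfc3, the lowest, to Pclaf, the highest, with 20 filled points below 0 and 16 above it.

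The D and E cyclins and Cdk inhibitors all fell, 10 of 10 listed, beside 81.9% of all transcripts. Ccne1, cyclin E1, stood at 5.09, 31.1 and 10.7% after 2 h, and Cdkn1a, the inhibitor p21, at 35.6, 70.3 and 45.8%. Ccnd1 was below the median of its library in each replicate after 2 h, at 44.2, 67.1 and 58.0%. It was close to the library medians after 6 h, at 14.1, 9.25 and 17.9%. Ccnd2 was long-lived, at 92.0, 107 and 107% after 2 h and at 64.8, 45.8 and 76.5% after 6 h, and did not overlap Ccnd1 at either time. Ccnd3 stood at 54.6, 73.4 and 51.3% after 2 h and at 17.0, 6.81 and 8.36% after 6 h, and overlapped Ccnd1 at both times.

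Among 15 genes of the p53 and integrated stress responses, 13 fell, beside 81.9% of all transcripts. Faster than the median transcript were 7 (46.7%, beside 26.5%) and slower 3, or 11 and 3 under upper-quartile centring, beside 4380 and 1722 of all 7573. Ddit4, an inhibitor of mTORC1, stood at 4.96, 12.3 and 15.5% after 2 h. Atf4, the effector of the integrated stress response, stood at 45.8, 60.2 and 60.5% after 2 h and at 13.0, 10.7 and 2.07% after 6 h, and its call as faster was lost without replicate 3. Its target Asns, asparagine synthetase, stood at 47.5, 101 and 125% after 2 h and at 40.0, 72.4 and 110% after 6 h and was slower than the median transcript (0.41 ± 0.04, limma adjusted p = 7.4e-08), as were Atf5 and Ccng1.

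C2H2 zinc finger genes of the Zfp series, most of them DNA-binding repressors, fell nearly without exception. Of 141 listed, 140 fell and none rose, and 78 had already fallen at 2 h, beside 81.9, 5.06 and 18.8% of all transcripts. Their median half-life was 1.5 h. Of 116 tested, 32 were faster than the median transcript (27.6%, beside 26.5% of all transcripts) and 10 slower, which turned to 79 and 0 under upper-quartile centring, beside 4380 and 1722 of all 7573. Without the 6 h libraries 80 were faster, beside 2598 of all 7573 transcripts.

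The general transcription and mRNA decay machinery is read here beside the 26.5% of all transcripts that were faster and the 35.2% that were slower. Of 24 tested subunits of RNA polymerases I, II and III, 11 were faster and 3 slower. Of 39 tested Mediator and TAF genes, 18 were faster and 9 slower, among the first Med8, which stood at 41.0, 54.6 and 113% after 2 h and was listed at 0 in all 3 replicates at 4 and 6 h. Of 46 tested genes of mRNA decay, 18 were faster and 7 slower. Under upper-quartile centring the polymerase genes held 18 faster and 3 slower, the Mediator and TAF genes 26 and 4 and the decay genes 35 and 4, beside 4380 and 1722 of all 7573. Among transcripts never at 0, 3 of 12 polymerase genes, 2 of 18 Mediator and TAF genes and 5 of 29 decay genes were faster, beside 706 of all 5440 such transcripts. The 10 listed proteins that bind AU-rich elements held none that was faster and 4 that were slower, or 4 and 3 under upper-quartile centring. Zfp36l2, which promotes decay of AU-rich messages, had lost most of its label by 2 h, when it stood at 4.53, 6.72 and 16.1%.

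Messages of the ribosome and of the respiratory chain kept or gained level over the chase. Of 83 listed genes of cytosolic ribosomal proteins, 71 rose on the spike-in scale, 1 fell and 82 were slower than the median transcript, also under upper-quartile centring. Over all transcripts 5.06% rose, 81.9% fell and 35.2% were slower, or 1722 of 7573 under upper-quartile centring. Their median stood at 80.7, 113 and 83.7% after 2 h and at 110, 182 and 132% after 6 h. Rplp1, of the ribosomal stalk, stood at 84.4, 116 and 87.1% after 2 h and at 125, 223 and 171% after 6 h from 1284 FPKM at 0 h. The gene that fell was Rpl7l1, a paralogue that acts in ribosome assembly, at 46.4, 56.8 and 49.1% after 2 h and at 7.27, 9.89 and 11.9% after 6 h. Ribosomal protein genes have many near-identical processed pseudogenes, and how the authors' counting divided shared reads was not tested.

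Of 75 nuclear genes of oxidative phosphorylation, 51 rose, 1 fell and 74 were slower than the median transcript (73 under upper-quartile centring), beside the same shares of all transcripts. Cox6c, a subunit of cytochrome c oxidase, stood at 91.5, 114 and 83.3% after 2 h and at 174, 295 and 242% after 6 h. Ndufv3, of complex I, was the gene not called, and it was listed at 0 in replicate 1 after 6 h and stood at 137 and 87.0% in the others. No mitochondrially encoded message was listed.

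The genes of mitochondrial translation lay nearer to all transcripts. Of 73 listed mitochondrial ribosomal protein genes, 56 fell and 3 rose, beside 81.9 and 5.06% of all transcripts. Of 72 tested, 12 were faster and 34 slower (16.7 and 47.2%, beside 26.5 and 35.2% of all transcripts). Under upper-quartile centring these were 30 and 20, beside 4380 and 1722 of all 7573. Their median half-life was 4.09 h, beside 6 h, the ceiling of the fit, in both the cytosolic ribosomal and the oxidative phosphorylation lists.

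Other housekeeping lists lay between these. Slower than the median transcript were 14 of 16 glycolysis genes, 24 of 26 chaperone genes, 11 of 12 tubulin and actin genes, 29 of 35 lysosome and V-ATPase genes and 26 of 35 proteasome genes. Pgk1, of glycolysis, stood at 121, 201 and 160% after 6 h, and Hk2, which catalyses the first step of glycolysis, was the only one of its list that was faster, listed at 0 in all 3 replicates at that time. Actb, cytoplasmic actin, stood at 115, 196 and 169% after 6 h, and Eef1a1, the translation elongation factor, at 113, 192 and 152%. Among 26 chaperones tested, Hsph1, a heat shock protein, was the only one that was faster, a call lost without replicate 2. Slower were also 39 of 55 splicing factors, 14 of 20 aminoacyl-tRNA synthetases, 34 of 56 translation factors and 13 of 16 genes of extracellular matrix and integrins, beside 35.2% of all transcripts. Under upper-quartile centring these counts were 28, 7, 26 and 10, with 17, 5, 21 and 2 faster, beside 1722 slower and 4380 faster of all 7573. The glycolysis, chaperone, tubulin and actin, lysosome and proteasome lists then held 14, 20, 9, 26 and 22 slower. They held 2, 4, 1, 6 and 7 faster.

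Cholesterol synthesis, on which myelin membrane depends, held both kinds. Of 23 genes, 19 fell and none rose, beside 81.9 and 5.06% of all transcripts, and 3 were faster and 13 slower (13.0 and 56.5%, beside 26.5 and 35.2% of all transcripts). Under upper-quartile centring these were 10 and 5, beside 4380 and 1722 of all 7573. Hmgcs1, an early enzyme of the pathway, stood at 103, 135 and 122% after 2 h and at 58.9, 85.0 and 109% after 6 h. It was slower than the median transcript (0.46 ± 0.04, limma adjusted p = 1.2e-08).

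**Figure D3:**
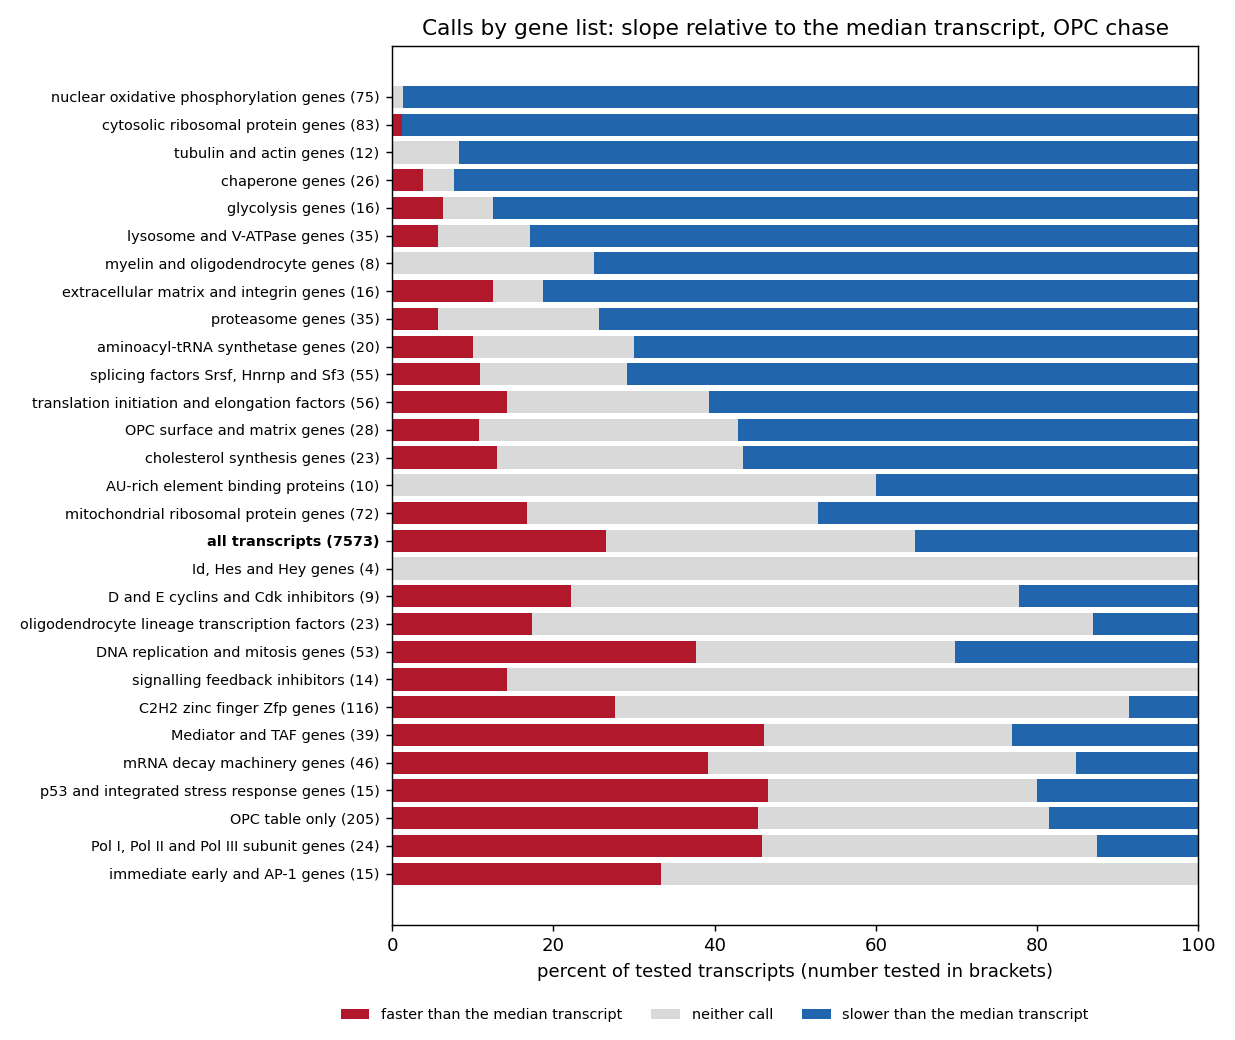
Share of tested transcripts (x axis, percent; number tested in brackets) that were faster than the median transcript (red), slower (blue) or neither (grey) in each gene list and over all 7573 transcripts, by limma at an adjusted p under 0.05. Oxidative phosphorylation and cytosolic ribosomal protein genes are nearly all slower, and immediate early genes, feedback inhibitors and Id, Hes and Hey genes hold none that is slower.

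The highest slopes on the spike-in scale among transcripts slower than the median transcript and at the 6 h ceiling in all 3 replicates were those of 15 genes. Their levels at 6 h lay between 132 and 474% of 0 h, all 15 rose, and no alternative processing ended the call of any of them as slower. The highest was Sparcl1 (chr5:104079111-104113733), a secreted matrix protein of glia, at 99.0, 104 and 111% after 1 h, at 67.0, 163 and 167% after 2 h, at 307, 144 and 331% after 4 h and at 238, 308 and 326% after 6 h. All 3 replicates were above 0 h from 4 h on. Its slope was 0.28 ± 0.05 log2 units per h (SE, limma adjusted p = 1.2e-05). Ptn, the growth factor pleiotrophin that binds Ptprz1, stood at 353, 239 and 474% after 6 h but from only 8.56 ± 6.75 FPKM at 0 h. Cpe, a carboxypeptidase of secretory granules, stood at 187, 266 and 233% and Selenop, the plasma carrier of selenium, at 152, 235 and 233% after 6 h. All 3 of these genes ended above 0 h in each replicate. The other 11 of the 15 were Gm20594, Fkbp3, Car3, Cox6c, Suclg2, Sh3bgrl, Aldh2, Msn, Atpif1, Cox4i1 and Gnas. Gm20594 has a single exon, and its name gives no function.

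At the other end, 15 transcripts had the shortest half-lives among those faster than the median transcript, between 0.39 and 0.73 h. The first was Lrrc75a (chr11:62604884-62648523), which encodes a leucine-rich repeat protein. It stood at 13.2 ± 4.72 FPKM at 0 h, at 14.9, 19.5 and 15.5% after 1 h, at 30.2, 7.41 and 5.77% after 2 h and at 0 in all 3 replicates after 6 h. Its half-life was 0.39 ± 0.03 h. Trib1, a pseudokinase that directs protein degradation, stood at 26.3, 38.3 and 40.0% after 1 h and at 6.56, 4.45 and 12.6% after 2 h. Fbxo5, an inhibitor of the anaphase-promoting complex, stood at 16.3, 51.2 and 55.1% after 1 h and at 3.50, 10.8 and 6.69% after 2 h. Brf2, a factor of RNA polymerase III, stood at 15.4, 82.1 and 11.7% after 1 h, where replicate 2 stood apart from the others. The rest were Ypel4, Smarcd2, Mad2l1bp, Zfp553, Sema4c, Traf2, Fastkd3, Hdhd3, Klhl25, Slc19a2 and Ankle1. They were low, with means of 6.20 to 26.0 FPKM at 0 h, and 14 of 15 were listed at 0 in some library. Adding 1 in place of 0.1 FPKM ended the call in 13 of 15 and turned the relative slope of Ypel4 to 0.04. Leaving out replicate 1, 2 or 3 ended 4, 5 and 5 of the calls, that of Trib1 among them without replicate 1 or 2.

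Values listed at 0 were common late in the chase. They made up 15.7, 21.6 and 16.4% of transcripts at 6 h and 2.23, 14.8 and 5.65% at 4 h, and none at 1 or 2 h, where the authors had removed transcripts at 0. In all, 2850 transcripts (33.4%) were at 0 in at least 1 library. They included 1376 of the 2006 faster transcripts (68.6%) and 1 of the 2665 slower ones. Without transcripts ever listed at 0, 706 of 5440 were faster and 2684 slower. Most zeros fell on low transcripts, but 6 of the 1612 transcripts whose 0 h mean reached 50 FPKM were at 0 in every replicate at 6 h. These were Schip1, Eif3g, Rgcc, Polr1c, Magoh and Plrg1, named after their values were seen. In Eif3g, a subunit of a translation initiation factor, the level was 62.7, 29.0 and 54.2% after 4 h and 0 in all 3 replicates after 6 h. The lowest level above 0 among these 1612 transcripts at 6 h was 0.944, 0.107 and 0.729%.

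The same values shaped the late class. Among the strongest late falls were those of Polr2j, of RNA polymerase II, Lsm8, of the U6 snRNP, Eif3g and Schip1, a cytoskeletal adaptor, and all 4 were listed at 0 in every replicate at 6 h. Of all 29 transcripts with a late fall, 23 were at 0 in some library. The early class held 6 such transcripts of 109. Its strongest member was Map3k12 (chr15:102497646-102516836), the kinase DLK, which stood at 61.5, 71.9 and 44.1% after 1 h, at 3.31, 18.8 and 5.46% after 2 h, at 4.56, 2.17 and 2.27% after 4 h and at 59.4, 58.3 and 59.1% after 6 h. It returned in all 3 replicates to nearly the same level. Sgk1, a kinase induced by serum and glucocorticoids, stood at 65.6, 56.8 and 69.9% after 1 h, at 2.66, 3.87 and 7.39% after 2 h and at 2.95, 3.59 and 3.34% after 6 h, and did not return.

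The 353 transcripts that the OL table does not list were low. Their median 0 h level was 6.04 FPKM beside 19.2 FPKM for the other 8177. Their medians after 6 h were 4.93, 0 and 6.54%, where the others stood at 14.8, 11.3 and 18.1%. Of the 353, 298 fell and 7 rose, beside 6691 and 425 of the other 8177. Of 205 tested, 93 were faster (45.4%) and 38 slower (18.5%) than the median transcript, beside 26.0 and 35.7% of the others. Under upper-quartile centring these were 142 and 22, beside 4238 and 1700 of 7368. Of the 353, 259 were listed at 0 in some library. Among the 71 never at 0, 10 were faster and 37 slower, beside 696 and 2647 of 5369 of the others.

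This set held 16 of the 53 genes of DNA replication and mitosis (30.2%) and 8 of the 28 genes of extracellular matrix and integrins (28.6%), where it held 4.14% of all transcripts. No immediate early gene, feedback inhibitor, lineage factor or cytosolic ribosomal protein gene was in it. The 10 highest at 0 h were Pttg1, Pimreg, Cdk1, Tk1, Aurkb, Spc25, Pmf1, Cdca7, Prc1 and Cenpm, with means between 46.8 and 126 FPKM. Of these 8 fell. Cdk1, the kinase of mitotic entry, stood at 47.7, 85.1 and 69.8% after 2 h and at 8.64, 10.5 and 4.58% after 6 h. Cdca7, a Myc target, was the shortest-lived of them, at 17.8, 17.3 and 16.7% after 2 h with a half-life of 0.79 ± 0.01 h. Pttg1, securin, lasted longer, at 64.7, 104 and 63.8% after 2 h and at 30.2, 90.6 and 32.0% after 6 h, where replicate 2 stood far above the others. Its fall was no longer past the threshold without the 6 h libraries. Cenpm, of the kinetochore, stood at 67.2, 93.6 and 51.0% after 6 h and Pmf1, of the same structure, at 33.4, 97.6 and 111%, and neither slope was past the threshold (limma adjusted p = 0.33 for both).

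The shortest-lived transcripts of the set above 2 FPKM at 0 h were Ypel4, Plekhh1, Zbtb3, Phykpl and Mad2l1bp, with half-lives between 0.40 and 0.55 h. Plekhh1 stood at 24.4, 21.9 and 26.1% after 1 h from 4.00 ± 0.97 FPKM. The highest slopes were those of Car3, Gm21981, Fn1, Dhrs4 and Anapc13. Car3, a carbonic anhydrase, stood at 161, 241 and 373% after 6 h. Fn1, fibronectin, stood at 232, 341 and 152% after 6 h from 2.31 ± 1.23 FPKM, and its call was lost without replicate 1. That of Dhrs4 was lost without replicate 2 or 3.

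Half-lives were refitted as the authors did, as a single exponential through 100% at 0 h by least absolute deviations, with longer estimates set to 6 h. The refit came within 0.05 h of the deposited half-life for 98.7, 99.9 and 99.0% of 8491 transcripts, and the other 39 have no deposited value. Medians were 2.33, 2.06 and 2.80 h, and 24.6, 25.2 and 31.3% of transcripts were at the 6 h ceiling. At the ceiling in all 3 replicates were 1500 transcripts (17.6%), and 146 (1.71%) were under 1 h in all 3.

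A few values recurred in these half-lives, the most frequent over the 3 replicates at 1.96 h. At 1.96 h, within 0.005 h, stood 195, 2190 and 655 transcripts, which is 2.29, 25.7 and 7.68% of each replicate. The deposited columns held 192, 2185 and 650 there. At 1.96 h the fit has a minimum fixed by the sampling times whenever the 1 h and 2 h points lie above the curve and the 4 h and 6 h points lie below it, whatever their size. In 34 transcripts all 3 replicates held it and in 2520 (29.5%) at least 1 did. Srf is one of the former, hence its SD of 0. These equal half-lives do not rank transcripts among each other. A further value, 1.86 h, was held by 293, 35 and 83 transcripts, more than 1.96 h in replicate 1.

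**Figure D4:**
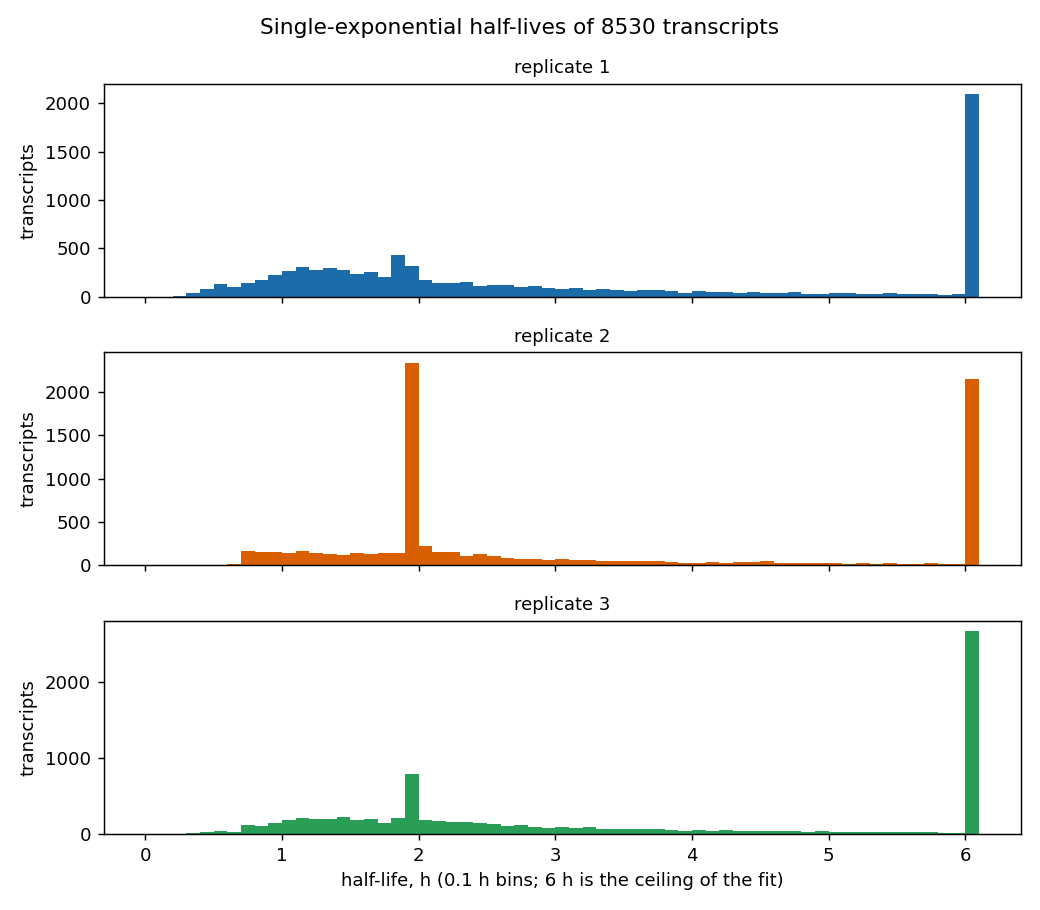
Histograms of the refitted half-life of 8530 transcripts in each replicate (x axis, hours in bins of 0.1 h; y axis, number of transcripts). Each replicate has a pile at the ceiling of 6 h, and replicate 2 has a further pile of 2190 transcripts at 1.96 h.

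Transcripts with few exons were lower early in the chase. Exon number was examined after values had been seen and is given as a description. Among transcripts whose 0 h mean reached 5 FPKM, the 224 with 1 exon had a median of 41.2, 49.4 and 50.2% after 2 h and the 311 with 2 exons one of 34.3, 49.4 and 53.6%. The 1496 with 3 to 5 exons stood at 58.2, 85.3 and 72.0%, and the 1006 with 21 or more at 57.4, 88.5 and 77.9%. The step lay between 2 and 3 exons in all 3 replicates. The share that had fallen at 2 h was 62.9% with 1 exon, 45.7% with 2, 21.9% with 3 to 5 and 10.4% with 21 or more. After 6 h the medians were 11.5, 9.37 and 12.7% with 1 exon, 20.3, 17.5 and 25% with 3 to 5 and 13.4, 8.74 and 16.8% with 21 or more. Leaving out transcripts ever listed at 0 kept the step, with 44.6, 51.1 and 51.9% at 2 h with 1 exon and 65.9, 95.2 and 76.5% with 3 to 5. Median coding length was 798 bases with 1 exon, 894 with 2, 616.5 with 3 to 5 and 3636 with 21 or more. Coding length thus did not rise across the step between 2 and 3 exons.

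**Figure D5:**
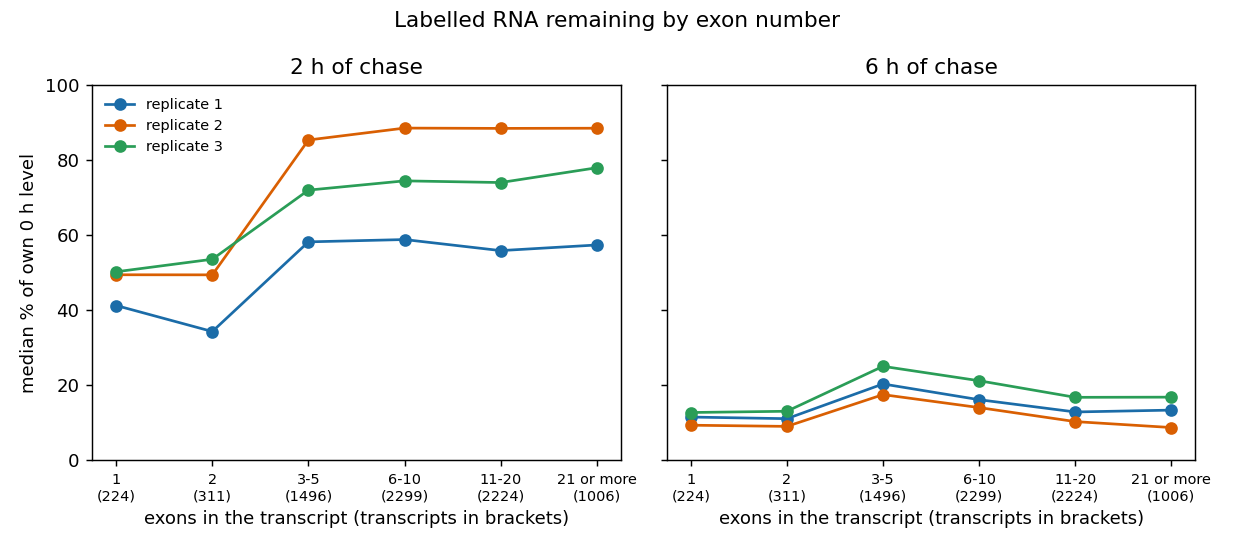
Median level of labelled RNA (y axis, percent of the same replicate's 0 h level) at 2 h and at 6 h of chase by the number of exons (x axis, with the number of transcripts in brackets), with a line for each of the 3 replicates for transcripts whose 0 h mean reached 5 FPKM. At 2 h transcripts with 1 or 2 exons lie between 34.3 and 53.6%, under every other bin of the same replicate, and at 6 h the bins lie between 8.74 and 25%.

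Slower transcripts were shorter and more abundant. Their median coding length was 1047 bases, beside 1506 in the faster and 1500 in those called neither. Their median 3′ UTR was 855 bases, beside 935 and 1476. Their median 0 h level was 42.8 FPKM, beside 16.4 and 16.2 FPKM. A Pumilio element (TGTANATA, sense strand of the 3′ UTR) was in 17.4% of the slower, 27.2% of the faster and 34.7% of those called neither, against 27.2% of all. Its share went with 3′ UTR length across these classes. In the 630 faster transcripts never listed at 0, the median 3′ UTR was 1638.5 bases and 37.5% held a Pumilio element. Their median 0 h level was 27.9 FPKM. Over 8517 transcripts, the half-life had Spearman coefficients of −0.10 to −0.21 with 3′ UTR length and of 0.33 to 0.41 with the 0 h level in single replicates, and transcripts of a replicate share their libraries.

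In OLs the slope was higher than in OPCs for 2576 of 8177 transcripts (31.5%) and lower for 33 (0.404%), by limma with the interaction of cell type and chase time. This split depends on scale too, since with libraries centred on their medians 338 were higher and 1859 lower, and all 33 were still among the lower. Among these 33 were Top2a, Gpr17 and Ptprz1. The counts of 2576 and 33 were both lower without the 1 h libraries, and the fewest came without an OL replicate, as given further on.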

How the data were processed

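FPKM values were made by the authors, who aligned reads to GRCm38 with HISAT2 2.1.0, tabulated canonical coding transcripts of GENCODE with StringTie 1.3.5 and ballgown, and scaled the libraries to spike-in RNA that carried 5-EU. The deposited 0 h values appear unscaled and later values scaled, so an error in a library's factor moves all its transcripts. The authors kept transcripts from 1 FPKM at 0 h and removed those at 0 at 1 and 2 h. Half-lives in hours were deposited by the authors per replicate, and here only served to check the refit.

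Groups were set from the labels, by cell and chase time, and all columns of the FPKM tables were used. Slopes, time points against 0 h, the early against late contrast and the difference between cell types were tested with limma 3.58.1 in R 4.3.3 (lmFit and eBayes with a trend, two-sided, Benjamini-Hochberg over all transcripts tested, threshold 0.05, replicate as a block). The block was used because each replicate is divided by its own 0 h library. The spike-in scale used log2(FPKM + 1), on which changes of low transcripts are understated. The relative scale used log2(FPKM + 0.1) with each library centred on its median. The scripts were tested on simulated data. Half-lives and sequence features (GENCODE M21 models on GRCm38, all 8530 transcripts matched, 8517 usable) were computed in Python 3.11.15 with numpy 2.4.6 and pandas 2.3.3. Replicates are described as biological by the study, and which OPC and OL replicates belong together is not stated.

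The members and gene lists were chosen with earlier results of these data known. Named genes were the 15 shortest half-lives among faster transcripts, the 15 highest slopes among slower transcripts at 6 h in all 3 replicates, the 10 highest, 5 shortest-lived and 5 highest in slope of those in the OPC table only, the 5 strongest early and late contrasts, and members of the lists. Others are said to be chosen after their values were seen. Alternatives changed the block, the pseudocount, the minimum level, the centring, the replicates and the time points. The no-biotin library and the deposited half-lives of OLs were not used here. Results on some genes are not reported here.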

Additional observations from a re-analysis of the deposited data

Results flagged for a closer look

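Differences between the cell types were tested with limma as the interaction of cell type and chase time. The slope on the spike-in scale was higher in OLs for 2576 transcripts and lower for 33. Among the 15 shortest-lived named transcripts, Lrrc75a differed by 0.39 log2 units per h (adjusted p = 0.015 by limma) and Traf2 by 0.33 (adjusted p = 0.028), both less negative in OLs. With libraries centred on their medians, the differences were 0.18 (adjusted p = 0.33) for Lrrc75a and 0.11 (adjusted p = 0.50) for Traf2. Of the 33 transcripts with a lower slope in OLs, 12 rose in OPCs.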

How the results depend on the processing

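Leaving out 1 replicate in turn gave 6521 to 6941 transcripts that fell and 253 to 460 that rose on the spike-in scale, and 1403 to 1636 faster and 2434 to 2559 slower on the relative scale. At 1 h it gave 0 to 100 that fell and 0 that rose, at 2 h 664 to 1614 and 0 to 3, at 4 h 4958 to 5367 and 32 to 259, and at 6 h 6778 to 7003 and 138 to 311. The lowest counts of transcripts that rose came without replicate 2 for the slope and without replicate 3 at 4 and 6 h. Early falls numbered 0 to 18 and late falls 0 to 8, with 0 of both without replicate 1. Between cell types 8 to 40 were lower and 752 to 2632 higher in OLs, the fewest without an OL replicate. The mean of the 3 replicate medians of the half-life, 2.40 h, ranged from 2.20 to 2.56 h, and the share at 6 h from 24.9 to 28.2%. The 2.57 h given for all transcripts is another measure, the median of each transcript's mean half-life.

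Centring on the median gave 1154 that fell and 3365 that rose on the spike-in scale, and 338 higher and 1859 lower in OLs. Centring on the upper quartile gave 4380 faster, 1722 slower and 70 late falls. A pseudocount of 1 gave 1306 faster, 555 early and 80 late falls, and a pseudocount of 0.1 gave 0 that fell at 1 h and 251 at 2 h. A minimum of 5 FPKM gave 2 that fell at 1 h. Without the 1 h libraries 12 were lower and 1454 higher in OLs. Without the 6 h libraries 280 rose, 1579 were higher in OLs and the median half-life was 3.67 h. Without transcripts ever listed at 0, an alternative added after seeing the data, as were the list counts without 6 h, 4204 fell by slope, 706 were faster, 69 fell at 1 h, 774 at 2 h, 3134 at 4 h and 4372 at 6 h, with 244 early falls, a median half-life of 3.76 h and 38.0% at 6 h.

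Without the replicate block, 6972 fell and 420 rose, 1969 were faster and 2614 slower, 1 fell at 1 h and 1431 at 2 h, and 2252 were higher and 19 lower in OLs. Deviations of same-numbered libraries correlated from −0.087 to 0.569 (median 0.105, 30 pairs), so the pairing shows in some pairs and not in others.

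Among named genes, centring on the upper quartile turned Mcm7 to −0.120, Mcm5 to −0.0985, Etv1 to −0.0890, Carhsp1 to −0.0645 and Mki67 to −0.0356 log2 units per h. Without the 6 h libraries Mcm3 was at 0.0728 and Ndufv3 at 0.0726. Leaving out 1 replicate moved Ndufv3 between −0.40 and 0.0394 and Pmf1 between −0.0923 and 0.00772, the positive values without replicate 1. Ypel4 was at 0.0354 with a pseudocount of 1. The causes were not tested. Read depth is unknown, so no floor can be given for values listed at 0.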
